A study of Rattus norvegicus with 24 samples.

Results

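A set of 201 rat transcripts, of 22938 counted in every library, stood higher in the liver of old than of young animals in 2 assays at once. Each member had to lie higher in every old than in every young liver library, with an old mean at least 1.5 times the young mean and at least 1 CPM (the counts of a transcript times 1000000 over the total of its library), in RNA-seq and in ribosome profiling alike. The rule was met by 206 transcripts, and 5 of 6 transcripts set aside by name were among those. Brain and liver came from 3 young rats (Rattus norvegicus, 6 months) and 3 old rats (24 months), with no treatment or genotype given, and each organ of each animal gave 1 library per assay, so 24 libraries fell into 8 groups of 3. The titles carry 1 code per animal through both organs and both assays, while strain and sex are not given in the labels. The members were chosen by their liver values at both ages, so all liver differences with age below are descriptions with no test. Brain libraries took no part in the choice.

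RNA-seq counts follow how much of a transcript a tissue holds. Ribosome profiling sequences the mRNA pieces that ribosomes shield from nuclease, so its counts follow both the amount of an mRNA and how many ribosomes sit on it. Liver cells make most plasma proteins and break down drugs and hormones, and ageing of the rodent liver is known for infiltration by immune cells and for shifts in metabolic enzymes. The files name transcripts by Ensembl identifier only and do not pair these with gene symbols, so the roles of single members, and the cell types they may come from, were not analysed here. In whole-tissue samples, fewer cells of a type and less RNA per cell cannot be told apart.

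The RNA-seq libraries held 14281043 to 28664906 counts each, and the ribosome profiling libraries 5259326 to 17584871. All 3 old liver RNA-seq libraries (25444467 to 28664906) were deeper than the 3 young ones (17932008 to 21134842). Old animal 2 stood apart in brain. There, 50 transcripts typical of liver, none of them members, reached 4.95% of their young liver level in RNA-seq and 5.97% in ribosome profiling. The other old brains were at 0.162% and 0.212% in RNA-seq and at 0.445% and 0.359% in ribosome profiling. The young brains lay at 0.139% to 0.152% and 0.169% to 0.203%, so every old brain was above every young brain in both assays. These values are set beside the brain results further on.

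The rise in old liver was mostly of moderate size. In RNA-seq the old over young ratio of the 201 members had a median of 2.30, with quartiles of 1.80 and 3.49, and in ribosome profiling a median of 2.59, with quartiles of 1.92 and 4.61. At least 2-fold rises were seen for 119 members in RNA-seq and 136 in ribosome profiling, at least 4-fold rises for 42 and 60, and at least 8-fold rises for 19 and 26. Among all transcripts at 1 CPM or more in old liver, the median ratio was 0.945 in RNA-seq and 1.09 in ribosome profiling. Of those, 3.9% met the rule in RNA-seq alone and 7.05% in ribosome profiling alone, which is 440 and 786 transcripts, and 1.92% of 10747 at that level in both assays met it in both. As the rule is built on this contrast, nothing is read from these shares.

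The fold limit cut through a continuous range. The member just inside it, ENSRNOT00000025657, had ratios of 1.64 in RNA-seq and 1.504 in ribosome profiling, and the transcript just outside, ENSRNOT00000056076, had 1.49 and 2.35. The smaller of a member's 2 ratios lay between 1.5 and 1.6 for 19 members. Another 138 transcripts were higher in every old than every young liver in both assays with a smaller ratio under 1.5.

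**Figure D1:**
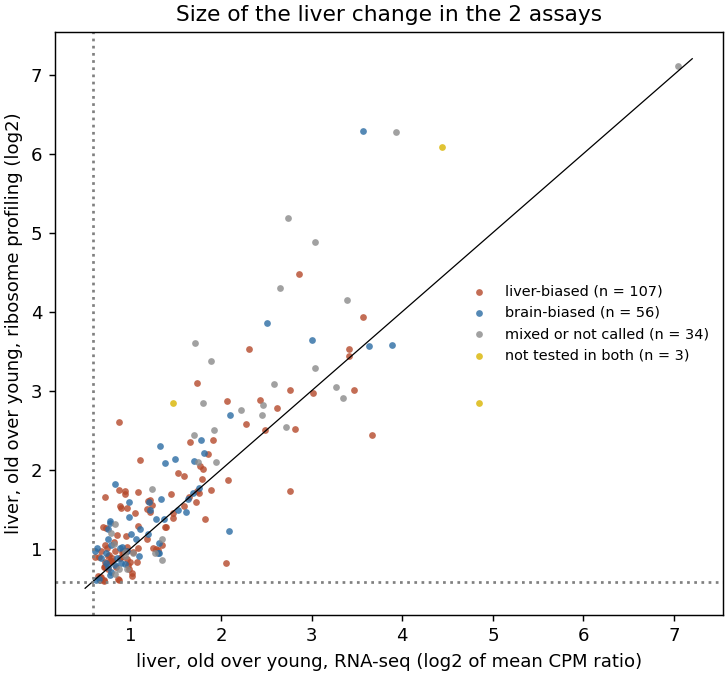
Old over young ratio of mean CPM in liver on the log2 scale, RNA-seq on the horizontal and ribosome profiling on the vertical axis, for the 200 members with counts in both young groups. The solid line marks equal ratios and the dotted lines the limit of 1.5. Scaled to library totals, most points lie close to the line, with 128 above it and 72 below. Colours give the organ class by the edgeR fits described in the text.

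The sizes in the 2 assays ran close together for most members, as the choice by both partly fixes. Of 200 members with counts in both young groups, 159 had ratios within 1.5 times of each other. The ratio was larger in ribosome profiling for 128 and in RNA-seq for 72, and the log2 difference had a median of 0.11 (quartiles -0.07 and 0.41). By library totals, all transcripts at 1 CPM or more in old liver had a median log2 age change of -0.08 in RNA-seq and 0.12 in ribosome profiling. Scaling by TMM factors (trimmed mean of M-values) instead moved these medians by 0.10 and by -0.11, to 0.02 and 0.01. These moves were in opposite directions and together larger than the members' gap of 0.11. No excess in ribosome profiling is therefore read from the gap or from the split of 128 against 72.

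The largest ratios belonged to members that were close to absent from young liver. ENSRNOT00000024223, singled out after its values were seen, had 2 counts over the 3 young RNA-seq libraries and 1 over the 3 young ribosome profiling libraries. Its old livers held 29, 57 and 262 counts in RNA-seq and 15, 30 and 121 in ribosome profiling, which gave the largest ratios of the set, 132 and 138. So few young counts leave the size of these ratios poorly known. In all, 3 members had 1 to 3 young liver counts in RNA-seq and 5 in ribosome profiling. One member, ENSRNOT00000004236, had 0 young ribosome profiling counts, and taking 3 counts in the whole group as the floor, it was at least 15.8-fold higher in old liver.

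Among members with counts in every young liver library, ENSRNOT00000025829 had the largest combined ratio. In RNA-seq it was at 0.0946, 0.109 and 0.112 CPM in the young livers and at 4.54, 3.10 and 1.43 CPM in the old livers, a ratio of 28.8 (young 0.105 ± 0.00905, old 3.02 ± 1.55 CPM; SD, n = 3). In ribosome profiling the young livers had 0.338, 0.264 and 0.227 CPM and the old livers 3.08, 2.29 and 0.586 CPM, a ratio of 7.19. Old animal 3 was the lowest old liver in both assays here, the opposite of most members. In brain this member was at 0 to 0.129 CPM in RNA-seq in all 6 animals.

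ENSRNOT00000037387 came next. Its RNA-seq level was 0.0473, 0.109 and 0.335 CPM in young and 0.558, 1.45 and 3.14 CPM in old livers, a ratio of 10.5. Leaving out young animal 3 gave 22.0, and leaving out old animal 3 gave 6.15. Its ribosome profiling level was 0.169, 0.132 and 0.0569 CPM in young and 1.03, 1.90 and 3.38 CPM in old livers, a ratio of 17.7. Old animals 1, 2 and 3 stood in the same order in both assays, while the young animals stood in the reverse order. These levels rest on 9 young RNA-seq counts and 5 young ribosome profiling counts in all.

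At the other end were members with a high level in young liver already. CPM is not divided by transcript length, so levels are compared between animals and not between transcripts. ENSRNOT00000058479 was at 5324, 3597 and 3584 CPM in the young livers and at 5818, 6162 and 10405 CPM in the old livers in RNA-seq (4168 ± 1001 against 7462 ± 2555; SD, n = 3; ratio 1.79). In ribosome profiling it went from 6234, 5410 and 5487 CPM to 7406, 8081 and 13792 CPM, a ratio of 1.71. The lowest old and the highest young liver were close in RNA-seq, and old animal 3 stood far above the other two. ENSRNOT00000066595 had young livers at 4414, 3375 and 2704 CPM and old livers at 5474, 5429 and 7389 CPM in RNA-seq, a ratio of 1.74. Without old animal 3 its ratios were 1.56 in RNA-seq and 1.58 in ribosome profiling.

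A few transcripts took most of the members' counts. ENSRNOT00000058479, ENSRNOT00000066595 and ENSRNOT00000048158 were the only 3 members whose old RNA-seq mean reached 1000 CPM. The old livers gave 1.49% to 2.44% of their RNA-seq counts to these 3, of 2.03% to 3.18% for all members. The young livers gave 0.818% to 1.28%, of 1.10% to 1.57%. In ribosome profiling all members together took 1.56% to 1.81% of the counts of young livers and 2.52% to 4.07% of those of old livers. Most members were far lower. The median old liver level was 6.99 CPM in RNA-seq, 85 members reached 10 CPM there and 18 reached 100 CPM.

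**Figure D2:**
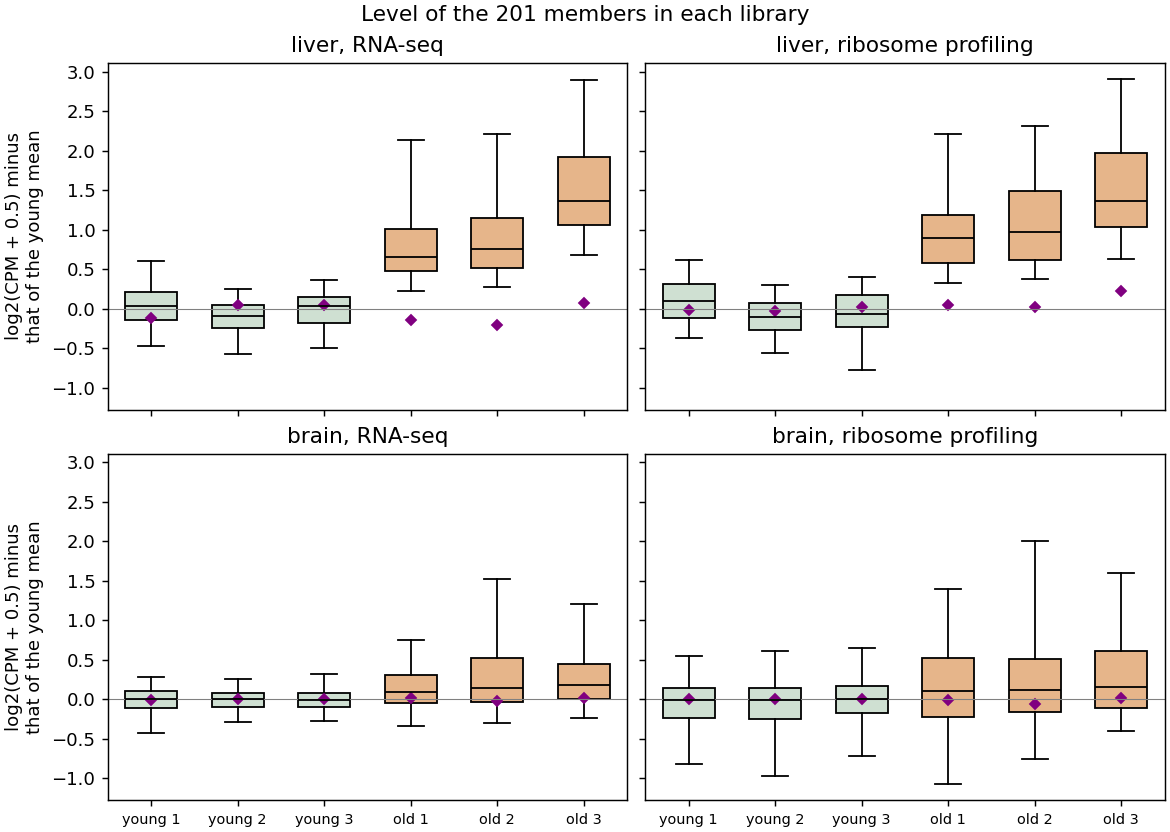
Level of the 201 members in each library, as log2(CPM + 0.5) minus the same of the transcript's young mean, by organ and assay. Boxes give quartiles and median, and whiskers the 5th and 95th percentiles of members. Diamonds give the median over all transcripts with a mean of at least 1 CPM, in old liver for the liver panels and in young brain for the brain panels. Old liver medians lie between 0.65 and 1.36, highest in animal 3, and old brain medians between 0.10 and 0.18.

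Old animal 3 was the highest of the old livers for most members. It held the top value for 155 members in RNA-seq, 140 in ribosome profiling and 136 in both. The members' median log2 level over the young mean was 0.65, 0.76 and 1.36 in the livers of old animals 1, 2 and 3 in RNA-seq, and 0.89, 0.97 and 1.36 in ribosome profiling. Transcripts as a whole also leaned to this animal. Among all transcripts at 1 CPM or more in old liver, 71.5% in RNA-seq and 54.5% in ribosome profiling had their top old value in animal 3, and the ratio of animal 3 to the mean of the other two had a median of 1.22 and 1.14. For the members that ratio had a median of 1.75 and 1.44.

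Without old animal 3, 141 of the 201 members still had ratios of at least 1.5 in both assays. The same count was 195 without old animal 1 and 198 without old animal 2. The full rule, with its limit of 1 CPM, kept fewer. Without old animal 3 it was met by 174 transcripts, 119 of them members. It kept 194 members without old animal 1 and 194 without old animal 2. For most members the other two old livers alone met the limit, at smaller ratios. The members' choice also depended on the scaling. Under TMM factors 216 transcripts met the rule, 170 of them members, and under median-ratio factors 209, 168 of them members. With the 10 most abundant liver transcripts left out of the totals, 292 met it, 200 of them members.

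The length-like value in the files, which no header defines, was lower in members than in the transcripts they were drawn from. Its median was 359 in members and 429 in all transcripts at 1 CPM or more in old liver in both assays. When those were split into 3 equal groups by this value, 2.29% of the short, 2.01% of the middle and 1.45% of the long group met the rule. With the trend of level on this value removed in each library, 213 transcripts met the rule, 170 of them members. Counts identical to those of another transcript across all libraries were found for 0 members.

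The members were drawn from both ends of the organ range, with more of them higher in liver. In edgeR fits over 12 libraries per assay, of liver minus brain averaged over both ages, 119 of 200 members tested were higher in liver in RNA-seq and 60 were lower, at an adjusted p under 0.05. Over all 14762 transcripts tested, 39.8% were higher and 46.8% lower. In ribosome profiling 108 of 198 members were higher in liver and 61 lower, against 35.7% and 45.9% of all 14440. The median log2 difference of the members was 1.18 and 1.04, against -0.12 and -0.23 over all transcripts.

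The gap to all transcripts narrows in part, more in the shares than in the medians, once the level part of the rule is applied to both sides. Members had to reach 1 CPM in old liver. Among the other transcripts that did so in both assays, 51.5% were higher in liver and 33.8% lower in RNA-seq, and 46.1% and 33.6% in ribosome profiling, with median log2 differences of 0.26 and 0.23. Of the members tested, 59.5% and 30% were higher and lower in RNA-seq and 54.5% and 30.8% in ribosome profiling. Liver values enter both the rule and this contrast, so the difference in shares was not tested.

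The split depends on how the organs are scaled to each other. TMM factors were 1.48 to 1.64 in brain and 0.578 to 0.718 in liver. With library totals and no factors, an alternative added after seeing the data, 78 members were higher in liver and 87 lower in RNA-seq (all transcripts 17.2% and 75.2%), and 65 and 89 in ribosome profiling (15.4% and 74.3%). The members' median log2 difference was then -0.02 and -0.26, against -1.36 and -1.56 over all transcripts. Members as a group lay further towards liver than all transcripts under both scalings, while the direction of their own median turned.

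Members called in the same direction in both assays were taken as classes. By TMM 107 members were liver-biased and 57 brain-biased, 34 were mixed or not called, and 3 were not tested in both assays. No member was called in opposite directions. By library totals the liver-biased class held 60 members and the brain-biased class 81, and 60 and 57 members were so called under both scalings. Of all transcripts tested in both assays, 32.6% were liver-biased and 41.3% brain-biased by TMM. It was 14.2% and 71.3% by library totals, and 14.2% and 41.3% under both scalings. Among the other transcripts at 1 CPM or more in old liver, 42.0% were liver-biased and 27.7% brain-biased by TMM, and among members tested in both assays 54.0% and 28.8%.

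The difference was large for a part of the set. By TMM, a log2 difference of at least 3 towards liver in both assays was seen in 38 members and towards brain in 19, and one of at least 5 in 20 and 5. Shares of all transcripts at these sizes are not given here, and the split depends on the scaling as above. Called at least 2-fold higher and lower in liver were 104 and 46 of 200 members in RNA-seq, against 3489 and 4878 of all 14762. In ribosome profiling it was 98 and 51 of 198, against 3422 and 5086 of 14440. ENSRNOT00000058479, described above, had the largest, at 11.57 in RNA-seq (SE 1.80, adjusted p = 0.000202, edgeR) and 10.45 in ribosome profiling (SE 1.30, adjusted p = 5.87e-05). Its brain RNA-seq levels were 0.262, 0.0647 and 0.333 CPM in young and 0.342, 236 and 2.10 CPM in old animals. The high value was that of old animal 2, whose brain libraries stood apart. Without that animal the RNA-seq difference was 14.67.

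ENSRNOT00000048158 was at 3033, 2061 and 1892 CPM in young and 3599, 3709 and 6602 CPM in old livers in RNA-seq. Its brain levels were 0.131, 0.194 and 0.200 CPM in young and 0.342, 145 and 1.47 CPM in old animals. The log2 organ difference was 11.31 in RNA-seq (SE 1.69, adjusted p = 0.000155, edgeR), and 14.28 without old animal 2. In brain these transcripts were near absent except in old animal 2.

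The brain-biased end held transcripts at a trace level in liver. ENSRNOT00000017965 was at 723, 539 and 551 CPM in young and 784, 707 and 706 CPM in old brains in RNA-seq. In liver it was at 2.84, 1.30 and 0.948 CPM in young and 3.66, 3.73 and 7.28 CPM in old animals. Its log2 organ difference was -6.60 in RNA-seq (SE 0.295, adjusted p = 1.78e-09, edgeR) and -6.67 in ribosome profiling (SE 0.360, adjusted p = 9.47e-09). Although the liver level rose 2.88-fold, it stayed far below the brain level.

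ENSRNOT00000038222 was at 71.8, 59.0 and 62.2 CPM in young and 83.5, 69.8 and 68.6 CPM in old brains in RNA-seq. In liver it was at 0.473, 0.109 and 0.446 CPM in young and 0.802, 0.511 and 2.17 CPM in old animals. Young and old livers were close here, since the lowest old value exceeded the highest young one by little. Its organ difference was -5.53 (SE 0.252, adjusted p = 1.03e-09, edgeR).

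**Figure D3:**
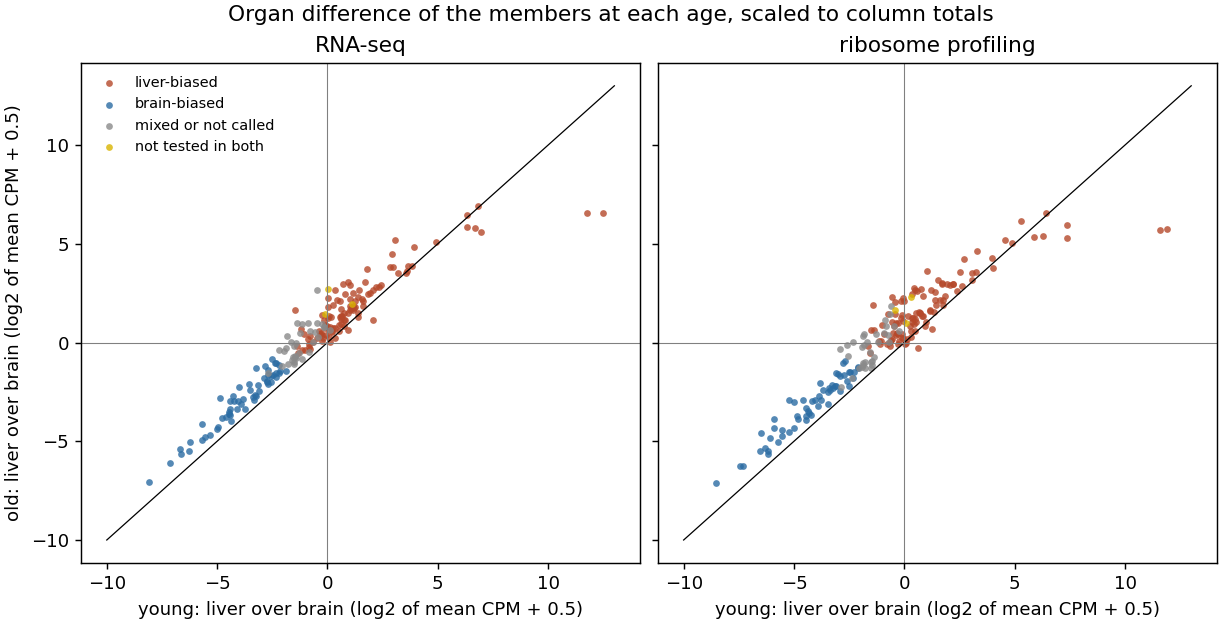
Liver over brain difference of the members in young (horizontal) and old animals (vertical), as log2 of mean CPM + 0.5, scaled to library totals, in RNA-seq (left) and ribosome profiling (right). The line marks equal differences at both ages, and colours give the organ class. Nearly all points lie above the line, and 27 members cross from lower to higher in liver in both assays.

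The rise in liver moved the members' place between the organs. By CPM, 83 members were higher in liver than in brain in young animals and 119 in old animals in RNA-seq, and 72 and 116 in ribosome profiling. In both assays 27 members went from lower in liver when young to higher in liver when old. Brain-biased members, a class defined by lying below brain in liver over both ages, came nearer to the brain level. In liver they stood at a median of 4.88% of their brain level in young and 13.2% in old animals in RNA-seq and at 3.90% and 11.2% in ribosome profiling. The rule chose for this shift, so it has no test.

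The median rise in liver was close between these 2 classes. Liver-biased members had median ratios of 2.11 in RNA-seq and 2.43 in ribosome profiling, and brain-biased members 2.15 and 2.38. The level differed: the median old liver RNA-seq level was 19.9 CPM in liver-biased and 3.82 CPM in brain-biased members. The 34 mixed members had larger ratios, 3.60 and 5.74, from a median young liver RNA-seq level of 0.630 CPM.

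In brain the members as a group leaned upward with age, but few passed the test. In RNA-seq 164 members could be tested by edgeR over the 6 brain libraries, and 4 were called higher and 0 lower at an adjusted p under 0.05, where 0.315% and 0.157% of all 13986 transcripts were. In ribosome profiling 157 were tested, and 8 were called higher and 1 lower, against 0.789% and 0.921% of all 13570. Called in either assay were 10 members and in both 3, counts for which the share of all transcripts is not given here. At an unadjusted p under 0.05, 41 members (25% of those tested) were higher and 12 (7.32%) lower in RNA-seq, against 7.29% and 6.68% of all transcripts. In ribosome profiling it was 30 (19.1%) and 7 (4.46%), against 7.43% and 6.65%. The share of lower members was thus near that of all transcripts. A total of 32 members had too few brain counts for either fit.

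The lean showed in the signs. In RNA-seq 113 of 164 members, or 68.9%, had a higher old brain estimate, against 48.8% of all transcripts, with a median log2 change of 0.14 against -0.00450. In ribosome profiling 110 of 157, or 70.1%, were higher, against 51.2%, with a median of 0.16 against 0.00705. Among members tested, every old brain lay above every young brain for 50 in RNA-seq (background 10.9%) and 38 in ribosome profiling (9.17%), and below for 8 (7.47%) and 12 (10.5%). Of 152 members tested in both assays, 91 (59.9%) were higher in both, 31 (20.4%) lower in both and 30 opposite, where 31.0% of all transcripts were higher and 32.1% lower in both. Both assays and both organs come from the same 6 animals, so these counts are not independent of each other.

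A member low in young brain could pass the count filter only by being high in old brain. Among the 150 members at 1 CPM or more in every young brain RNA-seq library, 104 were higher in old brain, with a median of 0.13. In ribosome profiling it was 98 of 142, with a median of 0.15. These values are close to those of all members tested. With liver-biased transcripts left out of the fit (at least 2-fold over brain, an alternative added after seeing the data), 93 members remained in RNA-seq and 92 in ribosome profiling. The median of these was 0.04 and 0.07. Liver-biased members are not among them, so this is not a second estimate for the same members. The fit with the spread taken over 12 libraries let members pass the count filter by their liver counts, so it covered another set of members. Their median was 0.22 in RNA-seq.

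By TMM classes, the upward estimates in brain came mostly from the liver-biased members, 69 of 113 in RNA-seq and 64 of 110 in ribosome profiling. For members liver-biased under both scalings it was 34 of 113 and 34 of 110, so this depends on the scaling. In RNA-seq 69 of 77 liver-biased members by TMM were higher in old brain, with a median log2 change of 0.30. Of the other liver-biased transcripts 65.2% were, with a median of 0.05. In ribosome profiling 64 of 75 were higher, with a median of 0.41, against 65.2% and 0.10. By TMM classes, all 4 members called in RNA-seq and all 8 called higher in ribosome profiling were liver-biased. Of those liver-biased under both scalings, 34 of 35 were higher in RNA-seq (median 0.52, 2 called) and 34 of 39 in ribosome profiling (0.54, 4 called), where 80.3% and 77.4% of the other transcripts of that narrower class were, with medians of 0.18 and 0.24. The brain-biased members were at 27 of 57 higher with a median of -0.02 in RNA-seq, and 30 of 57 with 0.01 in ribosome profiling. The difference between the classes was not tested.

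**Figure D4:**
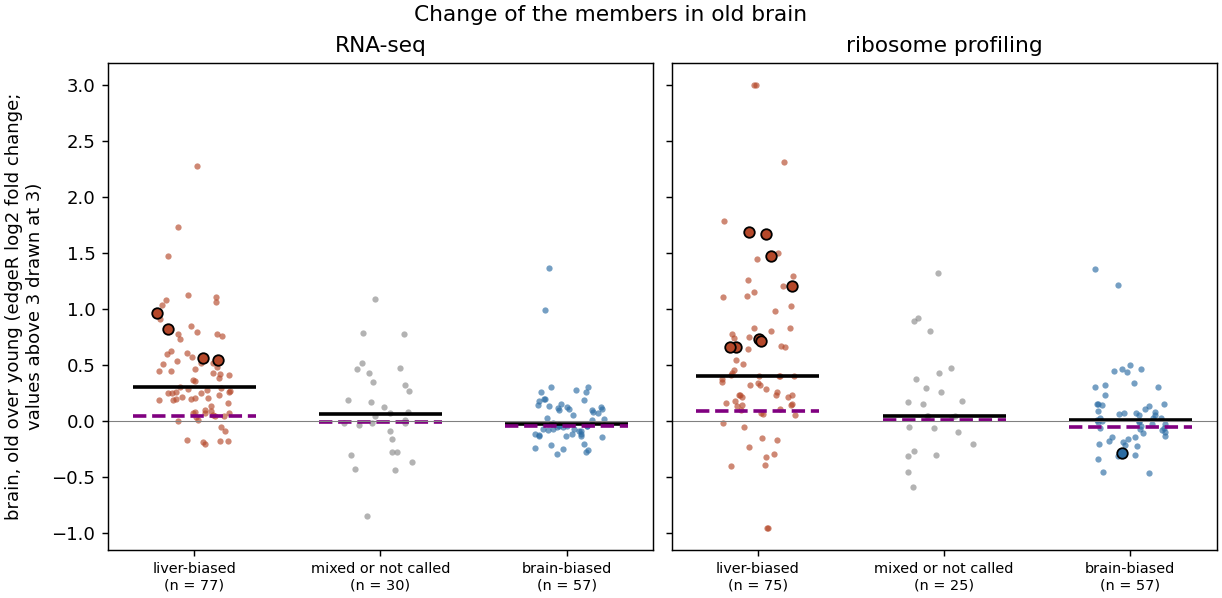
Old over young change of the members in brain, as edgeR log2 fold change, by organ class, in RNA-seq (left) and ribosome profiling (right), with values above 3 drawn at 3. Each point is a member and outlined points passed an adjusted p of 0.05. Solid bars are medians of members and dashed bars medians of the other transcripts of the class. The liver-biased members sit highest, with medians of 0.30 and 0.41, and the brain-biased ones at about 0.

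A liver-like signal was also higher in every old than in every young brain, as given at the start. Its part in the lean was not tested. Without old animal 2, whose brain held most of that signal, 65 of 77 liver-biased members were higher in RNA-seq (median 0.27) and 57 of 75 in ribosome profiling (median 0.33). The other liver-biased transcripts were then higher in 2377 of 3998 (median 0.03) and in 2343 of 3922 (median 0.07). By animal, the median log2 level of the liver-biased members over the young mean was 0.23, 0.37 and 0.31 in RNA-seq for old animals 1, 2 and 3, and 0.31, 0.36 and 0.40 in ribosome profiling.

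The brain excess of each liver-biased member was set beside the same quantity for the liver-typical transcripts. The excess was the old brain level minus the young brain mean, as a percent of the liver level of the same animal. Pooled over the 50 liver-typical transcripts, it was 0.0152%, 3.79% and 0.0677% in RNA-seq and 0.249%, 5.34% and 0.180% in ribosome profiling in old animals 1, 2 and 3. In RNA-seq 61, 56 and 67 of 77 members lay above that value, and 44 (57.1%) did so in all 3 animals, where 30.6% of 3978 other liver-biased transcripts did. In ribosome profiling it was 50, 45 and 55 of 75, and 32 (42.7%) in all 3 animals, against 23.7% of 3876 others. In old animals 1 and 3 the liver-typical value was very small. Lying above it there says little more than that the brain level exceeded the young mean. These counts therefore cannot tell what part the liver-like signal had, which was not tested. ENSRNOT00000066595, one of the 3 members above 1000 CPM in old liver, had a brain RNA-seq excess of 0.221%, 3.68% and 0.259%, above the liver-typical value in animals 1 and 3 and below it in animal 2.

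**Figure D5:**
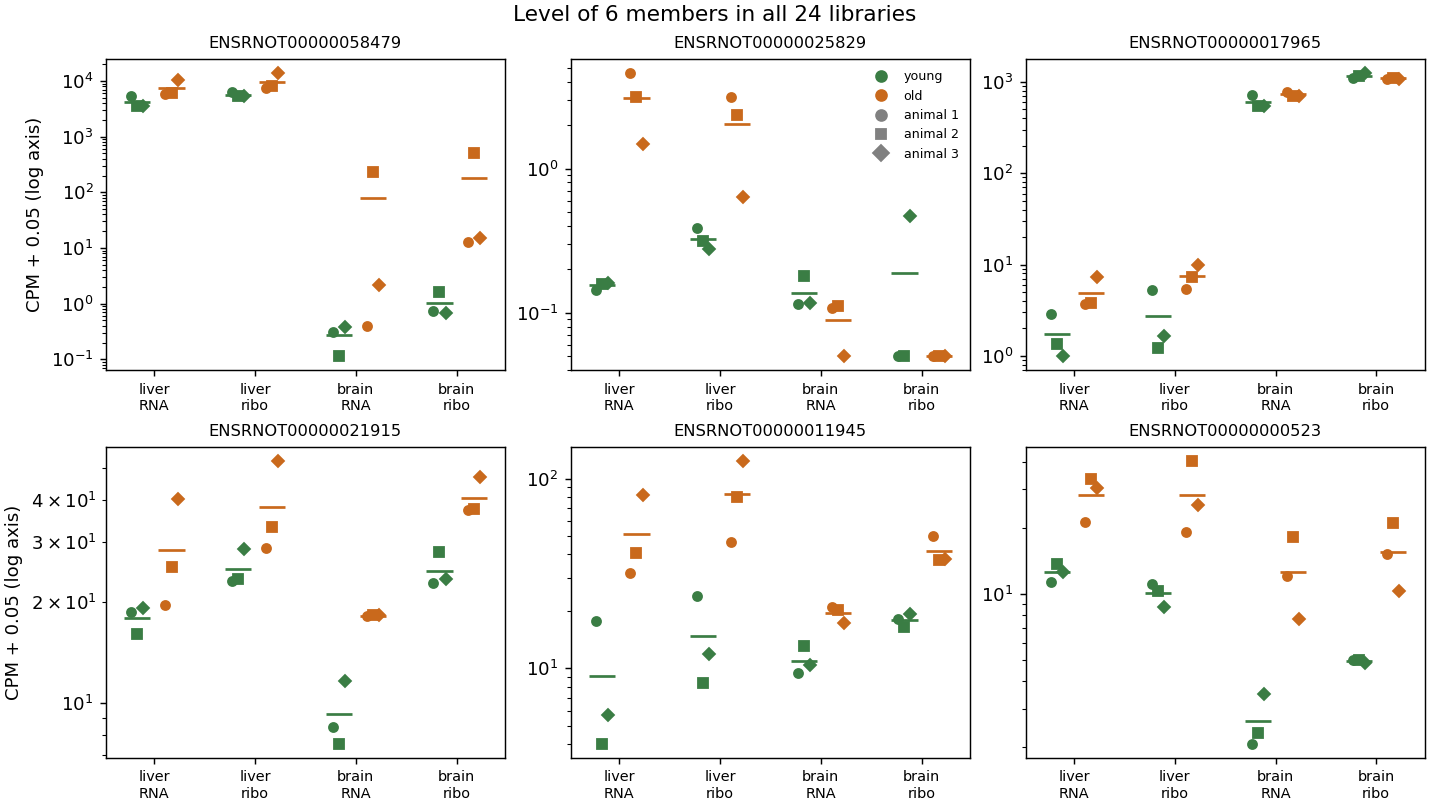
CPM + 0.05 on a log axis in all 24 libraries for 6 members, by organ and assay, with young animals in green, old animals in orange, a marker shape per animal number and a bar at each group mean. ENSRNOT00000058479 is near absent from brain except in old animal 2, while ENSRNOT00000021915, ENSRNOT00000011945 and ENSRNOT00000000523 are higher in all 3 old than in all 3 young libraries of both organs.

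ENSRNOT00000021915 had the largest called rise in brain RNA-seq. It was at 8.44, 7.51 and 11.6 CPM in young and 18.1, 18.2 and 18.1 CPM in old brains, a log2 change of 0.97 (SE 0.142, adjusted p = 0.0291, edgeR). In brain ribosome profiling it was at 22.7, 28.0 and 23.2 CPM in young and 37.3, 37.5 and 46.8 CPM in old animals (log2 change 0.73, SE 0.158, adjusted p = 0.0169). Young and old brains did not overlap in either assay. Its liver ratio was 1.59 in RNA-seq and 1.53 in ribosome profiling, near the limit of the rule. Its brain excess, taken as above, was 45.6%, 35.5% and 22.3% of its liver level in RNA-seq.

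ENSRNOT00000011945 was called higher in old brain in both assays and had a large liver ratio. Brain RNA-seq gave 9.35, 13.1 and 10.4 CPM in young and 20.9, 20.2 and 17.4 CPM in old animals (log2 change 0.83, SE 0.129, adjusted p = 0.0325, edgeR). Brain ribosome profiling gave 18.2, 16.5 and 19.3 CPM in young and 49.8, 37.3 and 37.5 CPM in old animals (1.21, SE 0.168, adjusted p = 0.000440). All 3 old brains were above all 3 young brains in each. In liver RNA-seq it was at 17.7, 3.97 and 5.63 CPM in young and 31.6, 40.2 and 81.7 CPM in old animals, a ratio of 5.62. Young animal 1 was the highest young liver and old animal 3 the highest old one. By library totals neither this member nor ENSRNOT00000021915 was liver-biased in both assays.

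The other members called in brain RNA-seq fall outside the rule for naming and are given after their values were seen. ENSRNOT00000017060 was called in both assays, with log2 changes of 0.56 (SE 0.0754, adjusted p = 0.0164) in RNA-seq and 0.66 (SE 0.132, adjusted p = 0.0112) in ribosome profiling by edgeR. Its brain RNA-seq levels were 23.6, 23.4 and 23.6 CPM in young and 32.5, 37.6 and 35.1 CPM in old animals, with little spread among the young. ENSRNOT00000001639 had a log2 change of 0.55 in RNA-seq (SE 0.0925, adjusted p = 0.0352) and 0.33 in ribosome profiling, which did not pass (adjusted p = 0.412).

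The RNA-seq calls in brain were fragile. The count of 4 was 0 without old animal 2 and 0 without young animal 2, 28 without young animal 1, and 1 without each of the other 3 animals in turn. None of the 4 was called in every one of these fits. DESeq2 called 17 members, all 4 among them, and limma-voom 0. The shares of all transcripts called are not given for these or the later alternative brain fits.

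ENSRNOT00000000523 had the largest called rise in brain ribosome profiling. It was at 4.95, 4.95 and 4.79 CPM in young and 15.2, 21.1 and 10.3 CPM in old brains, a log2 change of 1.69 (SE 0.290, adjusted p = 0.00278, edgeR). In brain RNA-seq it was at 2.03, 2.27 and 3.46 CPM in young and 11.97, 18.1 and 7.63 CPM in old animals, without overlap, but did not pass the test (log2 change 2.28, SE 0.394, adjusted p = 0.0851). In liver RNA-seq it was at 11.3, 13.6 and 12.5 CPM in young and 21.1, 33.3 and 30.4 CPM in old animals, a ratio of 2.27. Old animal 2 was highest in brain in both assays, and the other two old brains were also above all young ones.

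ENSRNOT00000002346 rose in brain ribosome profiling, from 1.86, 1.59 and 3.34 CPM to 9.32, 4.29 and 8.60 CPM (log2 change 1.67, SE 0.434, adjusted p = 0.0469, edgeR). Its brain RNA-seq levels were 3.79, 3.88 and 3.99 CPM in young and 3.93, 3.03 and 5.18 CPM in old animals, which overlap (0.04, SE 0.201, adjusted p = 0.952). In liver it was higher in both assays, with ratios of 1.6 and 1.96. The difference between the assays in brain was not tested. Its call was lost in 5 of the 6 fits that leave out an animal, among them each young animal.

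ENSRNOT00000017452 was the 1 member called lower in old brain. In ribosome profiling it was at 304, 317 and 304 CPM in young and 255, 239 and 261 CPM in old brains, a fall of 0.28 on the log2 scale (log2 change -0.28, SE 0.0670, adjusted p = 0.0282, edgeR). In brain RNA-seq it was at 188, 199 and 178 CPM in young and 178, 177 and 183 CPM in old animals, which overlap (-0.08, adjusted p = 0.494). In liver it is a trace transcript, at 0.710 to 0.978 CPM in young and 1.49 to 3.18 CPM in old animals in RNA-seq. The call passed neither without old animal 1, 2 or 3 nor without young animal 2 or 3.

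The ribosome profiling calls in brain moved less than those in RNA-seq. The count of 9 ranged from 3, without young animal 2, to 10 when single animals were left out. It was 14 by DESeq2 and 8 by limma-voom, and 2 of the 9 were called in every fit that left out an animal.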

How the data were processed

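The authors deposited, for each library, raw counts over 22938 transcripts with no normalisation, beside a length-like score that neither the deposited files nor the labels define. Per the labels' protocols, RNA-seq used a stranded kit on total RNA and ribosome profiling used nuclease footprints. Per the submitters' processing notes, Bowtie 1.0.0.0, TopHat2 2.0.10, DESeq and build rn4 were used. The annotation, counting rule, treatment of reads with several matches and duplicate removal were not given in the sources used here. Reads may be shared between transcripts of 1 gene.

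CPM was computed from column totals. Brain age (6 libraries) and organ (12 libraries, liver minus brain averaged over ages) were tested per assay with edgeR 4.0.16 in R 4.3.3: TMM factors, filterByExpr (minimum count 10, minimum total 15), robust quasi-likelihood F test, two-sided, Benjamini-Hochberg adjustment over all transcripts tested. The fits were tested on simulated data. The p-values measure the spread between these animals, 3 per age. An exact permutation test of 3 against 3 cannot go below p = 0.1. Alternatives used DESeq2 1.42.0, limma 3.58.1, other factors and filters, and left-out animals.

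Animal codes in the titles pair organs within an animal. With the animal as a block, the total of organ calls moved within 1.5 times. Named members were, per comparison, the highest level, the largest ratio, the most organ-biased and the largest called brain changes. The liver-typical transcripts were the 50 highest in liver at 20 or more times the median brain library, members left out. Members, lists and tests were chosen with earlier results of these data known. The planned gene lists and cell type markers could not be run, as 0 identifiers matched the reference gene table, and no sequences are printed.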

Additional observations from a re-analysis of the deposited data

Results flagged for a closer look

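Some members moved in opposite directions in the 2 organs: every old liver lay above every young liver, as the rule requires, while every old brain lay below every young brain. This was so for 9 members in RNA-seq, 12 in ribosome profiling and 2 in both assays. Of the 9, 8 were tested in the brain fit, or 4.88% of the members tested, against 7.47% of all transcripts lower without overlap there. In ribosome profiling the share was 7.64% against 10.5%, so neither share exceeded that of all transcripts. The difference between the organs was not tested, because the liver side was chosen by the rule.

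The 2 members of both assays, named after their values were seen, were ENSRNOT00000030327 and ENSRNOT00000019239, both brain-biased. ENSRNOT00000030327 was at 22.6, 23.7 and 23.4 CPM in young and 19.3, 18.9 and 20.1 CPM in old brains in RNA-seq (log2 change -0.27, SE 0.0716, adjusted p = 0.119, edgeR), with liver ratios of 3.52 and 4.61. ENSRNOT00000019239 was at 4091, 4112 and 4080 CPM in young and 3851, 3737 and 3875 CPM in old brains (-0.11, SE 0.0351, adjusted p = 0.188), with liver ratios of 1.54 and 2.02. Neither brain change passed the test in either assay.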

How the results depend on the processing

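The number of members, 201, was 106 with a ratio of at least 2, 107 with an old mean of at least 5 CPM, and 174 to 426 when single animals were left out (421 when young animal 1 was dropped, 426 for old animal 1 and 349 for old animal 2), where fewer libraries had to be free of overlap. The number of members called in either direction between organs stayed within 1.5 times under all 13 alternatives, per assay. By library totals its split moved more, with 78 in place of 119 members higher in liver in RNA-seq, 65 in place of 108 in ribosome profiling, and 60 in place of 107 in the liver-biased class.

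The 4 brain RNA-seq calls became 17 with DESeq2, 7 by library totals, 0 with limma-voom, 7 without the count filter, 0 with the spread taken over 12 libraries, 2 with liver-biased transcripts left out of the fit, and 0 to 28 when single animals were left out. The 9 brain ribosome profiling calls became 14 with DESeq2, 0 with the spread over 12 libraries, 2 with liver-biased transcripts left out, and 3 to 10 without single animals. Leaving out the liver-biased transcripts takes all 4 RNA-seq calls out of that fit, so its 2 are other members, and 8 of the 9 ribosome profiling calls, of which the remaining 1 is among its 2. For the other changes the cause was not tested.

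With the replicate number as a replicate block, 15 members were called in RNA-seq and 16 in ribosome profiling. The numbers mark different animals and no shared litter or day is given. Same-numbered young and old brains correlated in their deviations at 0.12, -0.01 and 0.10 in RNA-seq and 0.01, -0.03 and -0.04 in ribosome profiling, and 2 of 3 and 1 of 3 correlated best with their own number. They share only a number.

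The median brain change of members moved by more than the spread between old animals under 5 of 15 alternatives in RNA-seq and 9 of 15 in ribosome profiling, and was above 0 in all of these. Some of these alternatives tested a different set of members. The named brain changes kept their direction under all alternatives run. The call was lost in 6 of 14 for ENSRNOT00000021915, 7 of 14 for ENSRNOT00000011945 and for ENSRNOT00000002346, 2 of 14 for ENSRNOT00000000523 and 6 of 15 for ENSRNOT00000017452. Adjusted p-values ran from 7.63e-06 to 0.371, 9.79e-05 to 1, 0.0162 to 0.209, 8.92e-05 to 0.111 and 0.00347 to 0.725. Few counts limit the precision for members near 0 in young liver, and 32 members had too few for a brain fit.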
